A study of Mus musculus with 6 samples.

Results

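Mammalian cells take up zinc and iron through carriers and receptors, buffer them in metal-binding proteins and hand the surplus out again. The 10 genes described here, Mt1, Mt2, Slc30a1, Slc39a6, Slc39a10, Slc11a2, Tfrc, Fth1, Ftl1 and Hmox1, were picked by name for these roles, with earlier results of these data known. Each was found once among the 54532 genes of the deposited count table. They were followed through 3 T cell types of wild-type mice: Treg cells, which restrain immune responses, Th17 cells, which make interleukin 17, and naive T cells, which have not yet met antigen. Each type had 2 libraries of total RNA. The labels give the genotype as WT, the treatment as none and the tissue as thymus for all 3 types, and give no age. They do not say whether Th17 and Treg cells were sorted or made in culture. Nor do they say that the libraries stem from separate mice or cultures, so all p-values measure only how far these libraries spread, and that spread may be technical.

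Metallothioneins are small cysteine-rich proteins that hold zinc and copper, and their genes are switched on by the zinc-sensing factor Mtf1 through metal response elements in their promoters. Zinc enters the cytosol through carriers of the Slc39 (ZIP) family and leaves it through the Slc30 (ZnT) family. Iron arrives bound to transferrin, is taken in by the transferrin receptor, passes out of the endosome through Slc11a2 (DMT1) and is stored in a shell of ferritin heavy and light chains. When iron is short, iron regulatory proteins bind hairpins called iron-responsive elements, which blocks translation of ferritin mRNA and protects transferrin receptor mRNA from decay. T cells that start to divide are known to raise their iron uptake.

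Total counts ran from 16877130 to 17901331 in Treg, from 17395469 to 17491083 in Th17 and from 16458939 to 16569280 in naive libraries. Summed marker genes matched the labels: the 6 Treg markers summed to 4210 to 4400 CPM (counts scaled to library depth) in Treg, 2085 to 2103 in Th17 and 103 to 104 in naive libraries. Most of the Treg and Th17 sums was Il2ra, which averaged 2547 CPM in Treg and 1715 in Th17 cells. Of the 6, 4 were higher and 1 was lower in Treg than in Th17 cells at an adjusted p under 0.05 (edgeR). The 6 Th17 markers summed to 16.2 to 29.1 CPM in Treg, 2859 to 3073 in Th17 and 1.66 to 1.81 in naive libraries. Some markers of other cells also moved with type. The 10 macrophage markers summed to 4.58 and 6.44 CPM in Treg, 4.44 and 5.11 in Th17 and 36.1 and 51.7 in naive libraries, and the 5 B cell markers to 4.86 to 6.53 CPM in Treg, 4.82 to 6.02 in Th17 and 44.4 to 54.3 in naive libraries. Of the thymic epithelial markers, Epcam had 80.5 and 68.7 CPM in Treg, 0.0535 and 0 in Th17 and 1.62 and 5.05 in naive libraries, while Foxn1 was at 0 in all 6. The 5 immature thymocyte markers summed to 17.2 and 22.8 CPM in Treg, 3.21 and 10.5 in Th17 and 57.3 and 74.1 in naive libraries, and the 5 NK cell markers to 9.27 and 9.01 CPM in Treg, 22.5 and 38.6 in Th17 and 22.7 and 42.5 in naive libraries. Their part in the results was not tested. Libraries are called 1 and 5 below, as the table numbers them.

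Sequences of 2 kinds frame the results, because the members are known for control through them. The first is the pair of windows before the RefSeq starts of Mt1 and Mt2, neighbours on chromosome 8, shown since these genes had very different counts. Each is the 250 bases before the RefSeq start on the plus strand of GRCm38.p6, and capitals mark the metal response element core, TGCACNC or TGCGCNC, searched on both strands.
Mt1, chr8:94178839-94179088: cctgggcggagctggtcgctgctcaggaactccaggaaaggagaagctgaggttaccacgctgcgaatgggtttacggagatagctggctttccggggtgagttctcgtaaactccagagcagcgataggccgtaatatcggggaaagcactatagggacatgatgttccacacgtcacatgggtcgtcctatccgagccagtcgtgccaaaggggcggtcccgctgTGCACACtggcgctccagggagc
Mt2, chr8:94172368-94172617: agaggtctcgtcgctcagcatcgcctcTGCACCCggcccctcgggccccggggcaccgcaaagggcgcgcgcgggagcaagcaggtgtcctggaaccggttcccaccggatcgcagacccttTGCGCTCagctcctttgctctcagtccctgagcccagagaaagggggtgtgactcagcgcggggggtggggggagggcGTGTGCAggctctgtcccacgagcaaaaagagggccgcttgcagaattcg
The Mt1 window holds 1 core, which starts 23 bases before the RefSeq start. The Mt2 window holds 3, which start 223, 128 and 50 bases before it. Of 32851 RefSeq mouse promoters of this length, 21.4% hold at least 1 core, 5.17% at least 2 and 1.26% at least 3. A RefSeq promoter was found for 7 of the 10 members; Slc39a6, Slc11a2 and Hmox1 had none. Slc30a1 has 1 core, 43 bases before its start, and Tfrc has 2 overlapping cores, 53 and 50 bases before 1 of its 2 starts. Slc39a10, Fth1 and Ftl1 have none in these windows. A match of letters is a description and not a site of binding. Cores outside these windows were not searched, and for Mt1 and Mt2 each window rests on 1 RefSeq start. Whether transcription begins at that start in these cells was not tested, so a window need not hold the promoter in use. The counts of 1 and 3 therefore do not show which of the 2 genes has more metal response elements.

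The other set is the iron-responsive element cores of the ferritin and transferrin receptor mRNAs, in GENCODE release M21 transcripts. A core was taken as a C, 5 bases, the loop CAGTGN and 5 bases that all pair with the first 5, G with T allowed. Each is printed as 27 bases with the loop in capitals.
Fth1, 5′ untranslated region, chr19:9982733-9982759, plus strand: tcctgcttcaaCAGTGCttgaacggaa
Ftl1, 5′ untranslated region, chr7:45459780-45459806, minus strand: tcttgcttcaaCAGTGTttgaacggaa
Tfrc, 3′ untranslated region, chr16:32631220-32631246, plus strand: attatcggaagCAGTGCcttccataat
Tfrc, chr16:32631599-32631625: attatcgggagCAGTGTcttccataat
Tfrc, chr16:32631664-32631690: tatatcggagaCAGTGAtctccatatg
Tfrc, chr16:32631711-32631737: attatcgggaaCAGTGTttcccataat
Fth1 and Ftl1 have 1 core each, ahead of the coding sequence, and Tfrc has 4, all behind it. At least 1 match was found in 294 of 21877 protein-coding genes (1.34%), and Tfrc was the 1 gene with 3 or more. Of the 10 members, these 3 have a match. The pattern allows no bulge or mismatch in the 5 pairs and no other loop. Elements of another form are missed, so the lack of a match does not show that a gene has no element.

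**Figure D1:**
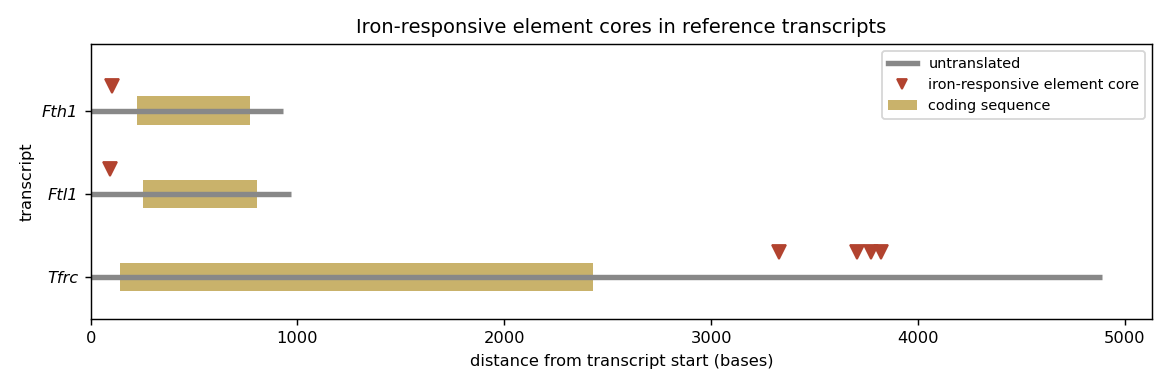
Map of the reference transcripts of Fth1, Ftl1 and Tfrc, with distance from the transcript start in bases on the horizontal axis, untranslated regions as lines, coding sequences as boxes and iron-responsive element cores as triangles. The single cores of Fth1 and Ftl1 lie before the coding sequence and the 4 cores of Tfrc after it.

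Of the 10 members, 9 had enough counts to be tested among 15543 genes, and Mt2 did not. Treg cells differed from naive cells in 6 of the 9 (4 higher, 2 lower), where 43.4% of all tested genes were called (23.6% higher, 19.9% lower). Th17 cells differed from naive cells in 4 of the 9 (3 higher, 1 lower), against 57.7% of all tested genes (29.3% higher, 28.4% lower). Treg cells differed from Th17 cells in 5 of the 9 (2 higher, 3 lower), against 38.4% (19.0% higher, 19.4% lower). The first and the last of these shares lie above the background and the second below it, on 9 genes each. The members were chosen with earlier results of these data known, so these shares are a description and no test of metal handling genes. Over the 9, the median log2 fold change was 0.29 in Treg and 0.23 in Th17 against naive cells and -0.16 between Treg and Th17, beside -0.0046, -0.028 and 0.018 over all tested genes. The comparisons with naive cells share the naive libraries. All called values are from edgeR's quasi-likelihood test with Benjamini-Hochberg adjustment over all tested genes, with an adjusted p under 0.05, and each log2 fold change is given with its SE.

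**Figure D2:**
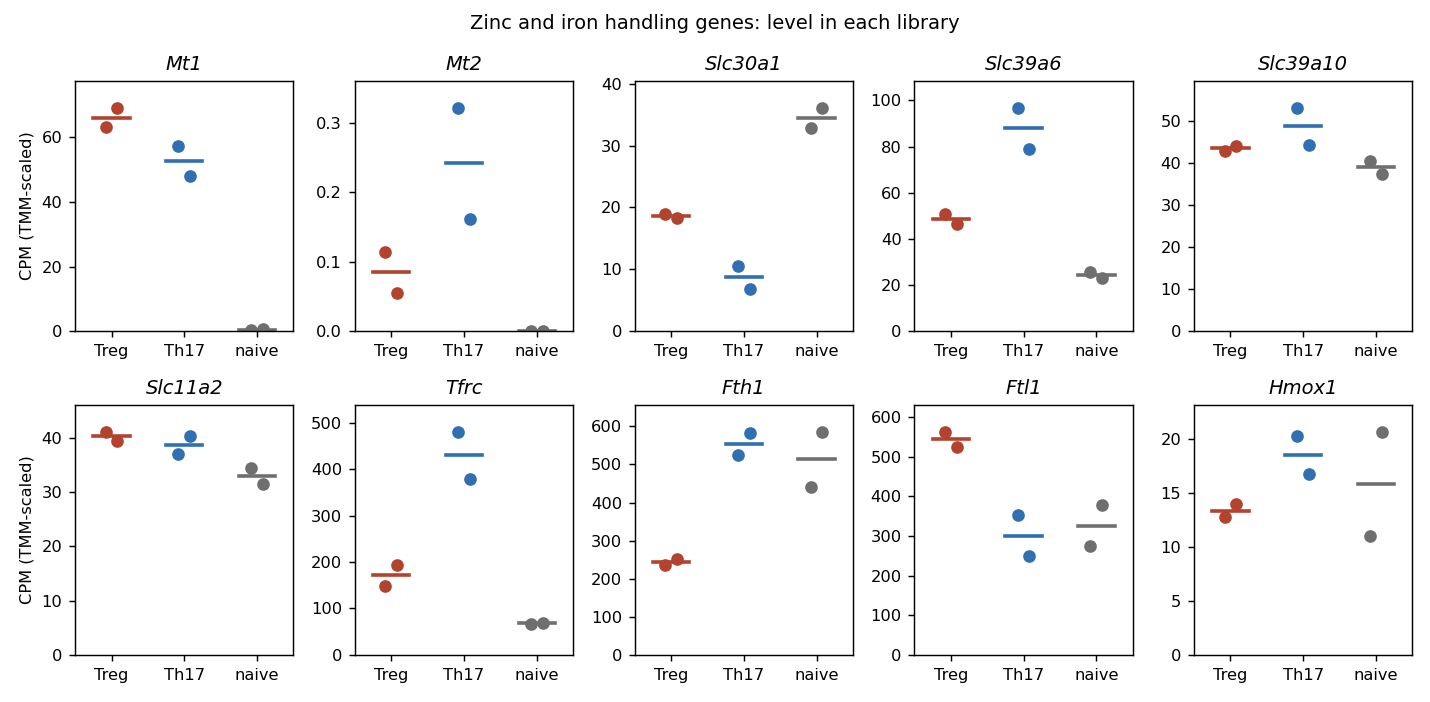
Level of each of the 10 genes in CPM on a linear axis that starts at 0 and has its own scale in each panel, with 1 point per library and a line at the mean of the 2 libraries of Treg, Th17 and naive cells. Mt1 stands near 0 in naive libraries, Tfrc and Slc39a6 are highest in Th17, and Fth1 is lowest in Treg while Ftl1 is highest there.

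Mt1 (chromosome 8, 94179082 to 94180327, mm10 as for all coordinates of genes here) showed the widest contrast of the 10 genes. It had 1102 and 1266 counts in Treg, 1071 and 894 in Th17 and 4 and 8 in naive libraries, or 63.1 and 69.1 CPM in Treg, 57.3 and 48.0 CPM in Th17 and 0.258 and 0.553 CPM in naive libraries. Every Treg and Th17 library thus lay far above both naive libraries. By summed counts, Treg was 165 times naive (95% exact interval 94.3 to 320) and Th17 131 times (75.1 to 255), intervals that cover counting error only. The log2 fold change of Mt1 was 7.34 ± 0.30 in Treg against naive cells (edgeR adjusted p = 2.79e-10) and 7.01 ± 0.30 in Th17 against naive cells (edgeR adjusted p = 1.85e-10). These rest on 12 naive counts: without naive library 5 they were 7.97 and 7.64, and over all left-out libraries they ran from 6.88 to 7.97 in Treg and from 6.55 to 7.64 in Th17 against naive cells. In bulk RNA, fewer cells that express a gene and less RNA per cell cannot be told apart, here or for any gene below. Both Treg libraries lay above both Th17 libraries, but the difference of 0.33 ± 0.18 was not called (edgeR adjusted p = 0.178).

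Mt2 (chromosome 8, 94172664 to 94173568), the other widely used metallothionein, overlaps the antisense gene Gm45774 over 73.5% of its exon bases. The sources used here do not say whether counting used strand, and without strand the reads of both genes cannot be told apart, so the values below are counts assigned to Mt2 and set no limit on its RNA. It had 2 and 1 counts in Treg, 6 and 3 in Th17 and 0 and 0 in naive libraries. All but 1 of these lie at or under the floor of 3 counts per library, and so no fold is given. Of the counts assigned to Mt1 and Mt2 together, Mt2 had 0.181% (95% exact interval 0.0219 to 0.653) and 0.0789% (0.00200 to 0.439) in Treg libraries. In Th17 libraries its share was 0.557% (0.205 to 1.21) and 0.334% (0.0690 to 0.974). The naive libraries, with 4 and 8 metallothionein counts in all, cannot give a share. Per kilobase of gene length, Mt1 stood at 53.0 ± 3.42 CPM in Treg and 42.3 ± 5.28 in Th17 cells, and Mt2 at 0.144 in Treg and 0.410 in Th17 cells (SD, n = 2). The Mt1 length of 1246 bases is its whole span, with no base left out as intron. That of Mt2, 588 bases, is shorter than its span. If the Mt1 mRNA is shorter than its span, its values per kilobase are too low, which was not tested. Gm45774 itself had 2 counts in Treg library 1 and 0 in the other 5 libraries. The authors' deposited table lists Mt2 with a log2 fold change of 2.803 in Treg and 4.35 in Th17 against naive cells and an adjusted p of 1 in both.

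The zinc sensor Mtf1, which drives both metallothionein genes, was the 1 gene of its list besides Mt1 that could be tested. It had 33.3 and 27.4 CPM in Treg, 38.0 and 40.0 in Th17 and 34.5 and 29.0 in naive libraries. Its log2 fold changes were -0.07 ± 0.19 in Treg and 0.30 ± 0.18 in Th17 against naive cells and -0.36 ± 0.18 in Treg against Th17 cells. None was called (edgeR adjusted p = 0.801, 0.185 and 0.139), though both Treg libraries lay below both Th17 libraries.

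Slc30a1 (chromosome 1, 191906767 to 191913247) encodes ZnT1, the carrier that moves zinc out through the plasma membrane, and like Mt1 it is a known Mtf1 target. It had 18.9 and 18.3 CPM in Treg, 10.5 and 6.88 in Th17 and 32.9 and 36.1 in naive libraries. Naive stood highest and Th17 lowest, with no overlap between any types, whereas Mt1 was lowest in naive. It fell by 0.89 ± 0.22 on the log2 scale in Treg (edgeR adjusted p = 0.00463) and by 1.99 ± 0.23 in Th17 against naive cells (edgeR adjusted p = 4.33e-06). Treg cells were higher than Th17 cells by 1.10 ± 0.23 (edgeR adjusted p = 0.00153). The gene 1700034H15Rik overlaps 8.92% of its exon bases and had 4 to 22 counts per library.

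Slc39a6 (chromosome 18, 24579881 to 24603817) encodes the zinc importer ZIP6. It had 50.9 and 46.5 CPM in Treg, 96.8 and 79.0 in Th17 and 25.5 and 23.2 in naive libraries. The 3 types formed separate steps, with Th17 highest and naive lowest. Slc39a6 rose by 1.00 ± 0.17 in Treg (edgeR adjusted p = 2.99e-04) and by 1.85 ± 0.17 in Th17 against naive cells (edgeR adjusted p = 4.92e-07), and Treg against Th17 cells gave -0.85 ± 0.17 (edgeR adjusted p = 9.23e-04). Slc39a10 (chromosome 1, 46807544 to 46892852) encodes ZIP10, the closest relative of ZIP6 and its known partner in a complex. It had 43.0 and 44.2 CPM in Treg, 53.2 and 44.3 in Th17 and 40.6 and 37.4 in naive libraries. The mean levels came in the same order as for Slc39a6 but lay close together, and none of its differences of 0.16, 0.32 and -0.16 (SE 0.17 each) was called in Treg against naive, Th17 against naive and Treg against Th17 cells (edgeR adjusted p = 0.473, 0.119 and 0.490).

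Within each library, Slc39a6 per kilobase was 1.77 and 1.57 times Slc39a10 in Treg, 2.72 and 2.67 times in Th17 and 0.940 and 0.929 times in naive libraries. Set against the exporter Slc30a1, also per kilobase, it was 3.47 and 3.26 times in Treg, 11.9 and 14.8 times in Th17 and 0.999 and 0.829 times in naive libraries. Both ratios kept the types apart without overlap, Th17 above Treg above naive.

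Tfrc (chromosome 16, 32608920 to 32632794), the transferrin receptor, had 149 and 195 CPM in Treg, 481 and 379 in Th17 and 66.9 and 69.6 in naive libraries. No types overlapped, and Th17 stood highest. Tfrc rose by 1.33 ± 0.18 in Treg (edgeR adjusted p = 4.36e-05) and by 2.66 ± 0.19 in Th17 against naive cells (edgeR adjusted p = 3.12e-08), and Treg against Th17 cells gave -1.32 ± 0.18 (edgeR adjusted p = 4.77e-05). Red cell precursors also carry much of this receptor, and the 9 erythroid markers summed to 3.83 and 10.7 CPM in Treg, 26.02 and 1.02 in Th17 and 3.42 and 3.04 in naive libraries. In Treg library 5 and Th17 library 1 most of the sum was globin RNA, with 0 and 34 counts of Hbb-bs in Treg, 140 and 0 in Th17 and 1 and 3 in naive libraries. In each of Treg and Th17 the library with more globin also had more Tfrc. The libraries of these types with 0 counts of Hbb-bs had 149 CPM (Treg) and 379 CPM (Th17) of Tfrc, above both naive libraries. The part of erythroid RNA in the Tfrc result was not tested.

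Slc11a2 (chromosome 15, 100387898 to 100425072), the carrier that takes iron out of the endosome once the receptor has brought it in, had 41.2 and 39.4 CPM in Treg, 37.1 and 40.4 in Th17 and 34.5 and 31.4 in naive libraries. Treg and Th17 overlapped, and both lay a little above naive, by 0.29 ± 0.17 and 0.23 ± 0.17 on the log2 scale. Neither difference was called (edgeR adjusted p = 0.189 and 0.256), nor was that of 0.05 ± 0.17 between Treg and Th17 (edgeR adjusted p = 0.834). Scaling by total count instead of TMM, which moved the median of all genes by 0.18 in Treg and 0.23 in Th17 against naive cells and by -0.05 between Treg and Th17, raised both differences from naive to 0.47, with edgeR adjusted p of 0.0461 in Treg and 0.0361 in Th17. Under the same scaling Slc39a10 was also called higher in Th17 than in naive cells, by 0.56 (edgeR adjusted p = 0.0142). All changes here are relative to TMM scaling. Reads of Slc11a2 exons can also belong to Gm5475, which shares 6.33% of them and had 0 to 5 counts.

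The ferritin chains parted ways in Treg cells. Fth1 (chromosome 19, 9982703 to 9985092), the heavy chain that oxidizes iron for storage, had 235 and 251 CPM in Treg, 526 and 582 in Th17 and 440 and 587 in naive libraries. Both Treg libraries were well below all others, and Th17 and naive overlapped. Fth1 fell by 1.08 ± 0.19 in Treg against naive cells (edgeR adjusted p = 3.28e-04) and by 1.19 ± 0.19 against Th17 cells (edgeR adjusted p = 1.59e-04). Th17 and naive differed by 0.11 ± 0.19, which was not called (edgeR adjusted p = 0.632).

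Ftl1 (chromosome 7, 45457944 to 45459884), the light chain that helps the iron core form, went the other way, with 564 and 526 CPM in Treg, 352 and 251 in Th17 and 275 and 378 in naive libraries. Treg was highest, and Th17 and naive overlapped. Ftl1 rose by 0.74 ± 0.21 in Treg against naive cells (edgeR adjusted p = 0.0100) and was 0.85 ± 0.21 above Th17 cells (edgeR adjusted p = 0.00460). Between Th17 and naive cells the difference was -0.11 ± 0.21 (edgeR adjusted p = 0.659). Both calls were lost without single libraries. Without naive library 1 the Treg against naive difference was 0.53 (edgeR adjusted p = 0.0735), and without Treg library 1 it was 0.70 (edgeR adjusted p = 0.0683). Without Th17 library 5 the Treg against Th17 difference was 0.63 (edgeR adjusted p = 0.0721).

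Ferritin genes have near-identical copies elsewhere in the genome, and the sources used here do not say how reads that match several places were counted. The copy Ftl1-ps1 had 229 and 209 counts in Treg, 146 and 108 in Th17 and 75 and 94 in naive libraries, far fewer than Ftl1 itself with 9854 and 9628 in Treg, 6583 and 4662 in Th17 and 4253 and 5461 in naive libraries. The copy Fth-ps2 had 25 and 9 counts in Treg, 1 and 2 in Th17 and 10 and 16 in naive libraries, where Fth1 had 4106 and 4594 in Treg, 9822 and 10836 in Th17 and 6816 and 8480 in naive libraries. The levels of Fth1 and Ftl1 are therefore uncertain by reads shared with such copies. The antisense gene Gm10252 shares 26.5% of the Ftl1 exon bases and had 3 to 23 counts.

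Per kilobase of gene length, the ratio of Fth1 to Ftl1 was 0.645 and 0.738 in Treg, 2.31 and 3.597 in Th17 and 2.48 and 2.40 in naive libraries. Both Treg libraries lay below the other 4. The size of this ratio depends on the length taken for Fth1, which is 866 bases in the deposited table and 3469 over all GENCODE M21 exons. The other 9 members have equal lengths in both, but these need not be the lengths of their mRNA. With 3469 bases the ratio was 0.161 and 0.184 in Treg, 0.576 and 0.898 in Th17 and 0.619 and 0.5998 in naive libraries. Treg stayed lowest, but which chain came out ahead in Th17 and naive cells turned with the length. The 3469 bases exceed the span of Fth1 given above, so they take in bases outside it. The reference transcript Fth1-201 has 929 bases, close to the 866 of the deposited table. Both chains carry the iron-responsive element core printed above ahead of their coding sequence, while Tfrc carries its cores at the other end. The ratio of Tfrc to Fth1 per kilobase was 0.0889 and 0.109 in Treg, 0.128 and 0.0912 in Th17 and 0.0213 and 0.0166 in naive libraries, so that Treg and Th17 overlapped and both lay above naive, and with the longer Fth1 it was 0.356 and 0.435 in Treg, 0.513 and 0.365 in Th17 and 0.0853 and 0.0666 in naive libraries.

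**Figure D3:**
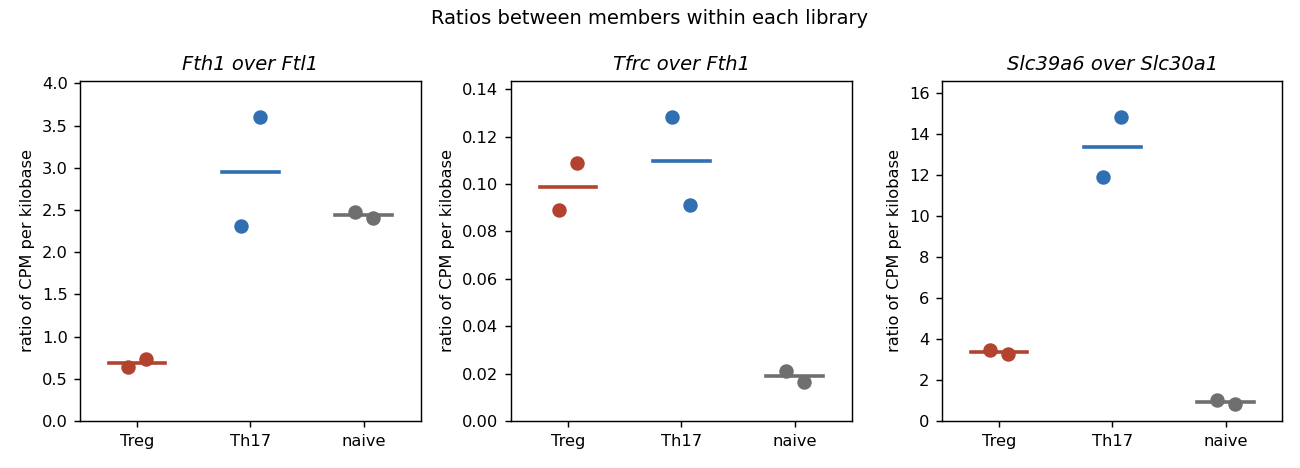
Ratios of CPM per kilobase between Fth1 and Ftl1, Tfrc and Fth1, and Slc39a6 and Slc30a1 on linear axes that start at 0, with 1 point per library and a line at the mean of the 2 libraries of each type. With the table's gene lengths, Fth1 over Ftl1 is lowest in the Treg libraries, at 0.645 and 0.738, and Slc39a6 over Slc30a1 reaches 11.9 and 14.8 in Th17.

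Hmox1 (chromosome 8, 75093621 to 75100589) encodes heme oxygenase 1, the inducible enzyme that splits heme and frees its iron. It had 12.8 and 14.0 CPM in Treg, 20.2 and 16.7 in Th17 and 11.05 and 20.7 in naive libraries. The naive libraries spanned the values of both other types, and Treg lay below Th17. Its differences of -0.24 ± 0.27 in Treg and 0.22 ± 0.27 in Th17 against naive cells and of -0.47 ± 0.27 between Treg and Th17 were not called (edgeR adjusted p = 0.497, 0.5002 and 0.194). The values turned on the naive libraries. Without naive library 5, Hmox1 was 0.75 higher in Th17 than in naive cells (edgeR adjusted p = 0.0339), and its difference for Treg against naive cells was 0.29. Without naive library 1, the same differences were -0.17 in Th17 (edgeR adjusted p = 0.582) and -0.63 in Treg against naive cells (edgeR adjusted p = 0.0572).

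**Figure D4:**
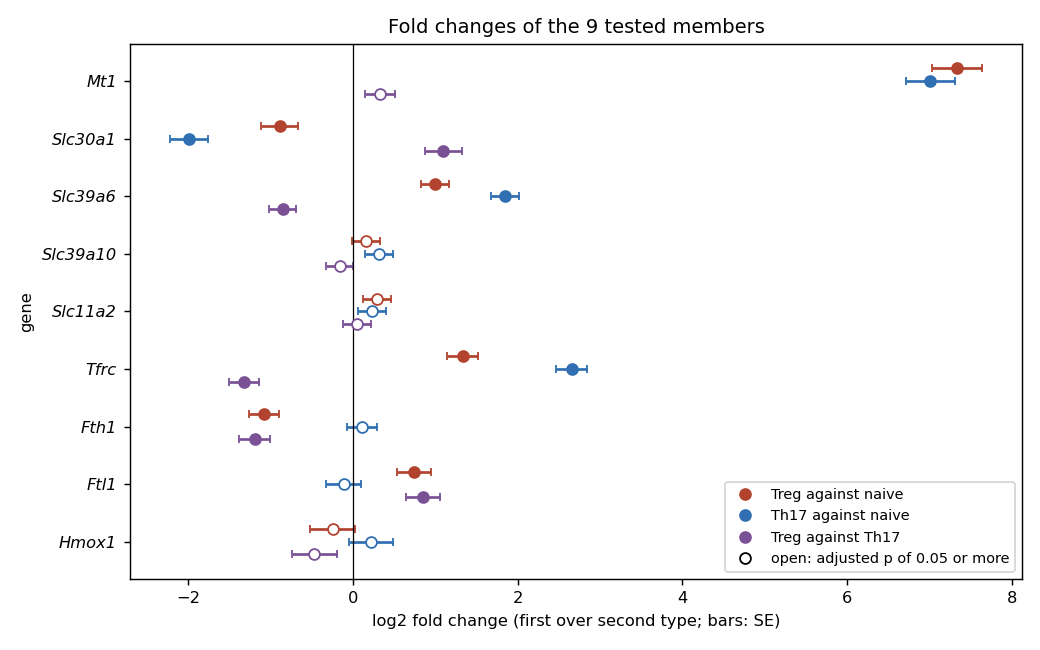
Log2 fold changes with SE bars of the 9 tested genes, for Treg against naive, Th17 against naive and Treg against Th17 cells, with filled points for calls at an adjusted p under 0.05 and open points for the rest. Mt1 stands apart at 7.34 and 7.01, Slc30a1 is negative against naive cells, and Slc39a10, Slc11a2 and Hmox1 have open points throughout.

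By level per kilobase, with the table's gene lengths, the members spanned a wide range in each type. The place of Mt1 in these orders depends on its length, which is its whole span. In Treg cells the order was Ftl1 (407 ± 20.3 CPM per kilobase, SD, n = 2), Fth1 (280.5 ± 12.9), Mt1 (53.0 ± 3.42), Tfrc (27.8 ± 5.19), Slc39a6 (11.95 ± 0.770), Hmox1 (7.63 ± 0.488), Slc39a10 (7.16 ± 0.136), Slc11a2 (6.34 ± 0.200), Slc30a1 (3.55 ± 0.0739) and Mt2 (0.144). Hmox1 and Slc39a10 were within the SD of each other there. In Th17 cells Fth1 led (640 ± 46.1), then Ftl1 (225 ± 53.8), Tfrc (69.6 ± 11.7), Mt1 (42.3 ± 5.28) and Slc39a6 (21.6 ± 3.08), with Hmox1 (10.6 ± 1.42), Slc39a10 (8.003 ± 1.03), Slc11a2 (6.10 ± 0.368), Slc30a1 (1.66 ± 0.488) and Mt2 (0.410) below. In naive cells Fth1 (593 ± 119) and Ftl1 (243 ± 54.3) were followed by Tfrc (11.04 ± 0.310), Hmox1 (9.06 ± 3.89), Slc30a1 (6.58 ± 0.434), Slc39a10 (6.40 ± 0.374), Slc39a6 (5.99 ± 0.396) and Slc11a2 (5.19 ± 0.345). From Tfrc to Slc39a10, neighbours in this naive order did not differ beyond their SD, and Mt1 (0.326 ± 0.167) and Mt2 (0 in both libraries) came last. With the 3469 bases of the GENCODE exons, Fth1 stood at 70.0 ± 3.21 CPM per kilobase in Treg, 160 ± 11.495 in Th17 and 148 ± 29.8 in naive cells, below Ftl1 in each type. Those bases exceed the span of Fth1 in the deposited table, so this lower rank in Th17 and naive cells rests on bases outside it.

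Around the members, 111 further genes of metal handling were listed by pathway, and 99 could be tested. In Treg against naive cells 29 were higher and 14 lower, a called share of 43.4%. In Th17 against naive cells 36 were higher and 18 lower (54.5%), and in Treg against Th17 cells 10 were higher and 21 lower (31.3%). These shares lie at or below the backgrounds given above, and the median log2 fold changes were 0.13, 0.14 and -0.03. The lists were also chosen with earlier results of these data known, so their shares are a description and no test. Shares per list below come in the same order of comparisons. With total count scaling, 80.0% of the calls for Treg against naive cells were higher, against 67.4% with TMM, and for Th17 against naive cells 80.8%, against 66.7%.

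**Figure D5:**
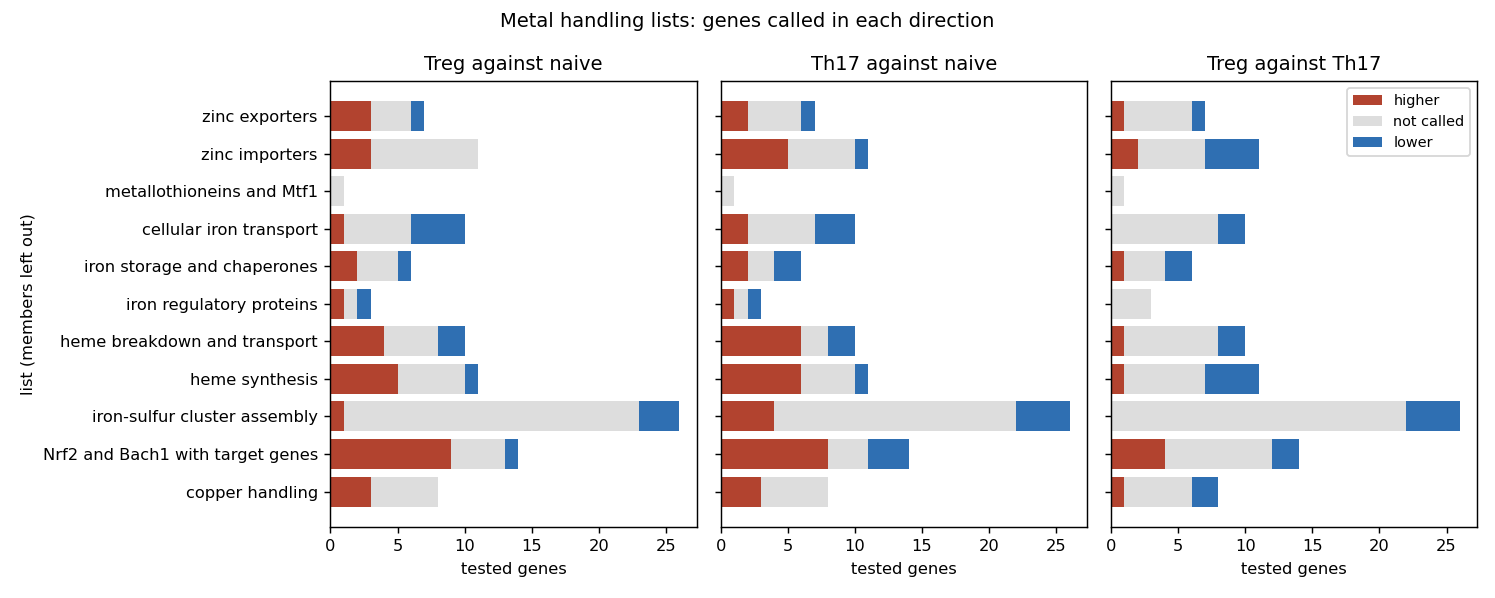
Number of tested genes of each metal handling list, without the 10 members, that were higher, not called or lower in Treg against naive, Th17 against naive and Treg against Th17 cells. Heme synthesis and the Nrf2 and Bach1 list have more higher than lower calls in both comparisons with naive cells. So do zinc importers, zinc exporters, heme breakdown and transport, copper handling and all tested genes. The list of iron-sulfur cluster assembly is mostly not called.

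Among 11 further zinc importers, 3 rose and none fell in Treg against naive cells, 5 rose and 1 fell in Th17 against naive cells, and 2 were higher and 4 lower in Treg against Th17 cells. Called shares were 27.3%, 54.5% and 54.5%, beside 43.4%, 57.7% and 38.4% of all tested genes. Slc39a8, the importer ZIP8 of zinc and manganese, had 137 and 126 CPM in Treg, 29.9 and 27.1 in Th17 and 4.97 and 4.50 in naive libraries. It was highest in Treg with no overlap, and rose by 4.79 ± 0.19 in Treg (edgeR adjusted p = 2.52e-10) and by 2.59 ± 0.19 in Th17 against naive cells (edgeR adjusted p = 3.00e-08). Slc39a4, the importer ZIP4 known from zinc uptake in the gut, was instead highest in Th17, with 18.7 and 13.5 CPM in Treg, 46.3 and 43.7 in Th17 and 2.58 and 3.18 in naive libraries. Slc39a14, the importer ZIP14 of zinc and iron, had 38.7 and 37.4 CPM in Treg, 135 and 128 in Th17 and 32.4 and 30.8 in naive libraries, and fell by 1.79 ± 0.15 in Treg against Th17 cells (edgeR adjusted p = 4.31e-07).

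Among 7 further zinc exporters, 3 rose and 1 fell in Treg and 2 rose and 1 fell in Th17 against naive cells, and 1 was higher and 1 lower in Treg against Th17 cells. Called shares were 57.1%, 42.9% and 28.6%, beside 43.4%, 57.7% and 38.4% of all tested genes. Slc30a4, which fills vesicles with zinc, had 55.6 and 40.2 CPM in Treg, 75.8 and 68.9 in Th17 and 19.4 and 19.6 in naive libraries, and rose by 1.89 ± 0.19 in Th17 against naive cells (edgeR adjusted p = 1.03e-06). Slc30a7, which loads zinc into the secretory pathway, moved with Slc30a1 and against Slc30a4: it had 53.0 and 53.9 CPM in Treg, 40.7 and 47.0 in Th17 and 98.1 and 88.9 in naive libraries. It fell by 0.81 ± 0.16 in Treg (edgeR adjusted p = 7.59e-04) and by 1.09 ± 0.16 in Th17 against naive cells (edgeR adjusted p = 3.45e-05).

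Of 10 further genes of cellular iron transport, 1 rose and 4 fell in Treg, and 2 rose and 3 fell in Th17 against naive cells. None was higher and 2 were lower in Treg against Th17 cells. Called shares were 50.0%, 50.0% and 20.0%, beside 43.4%, 57.7% and 38.4% of all tested genes. Slc40a1, ferroportin, the known exporter of iron from cells, had 2 and 1 counts in Treg, 0 and 0 in Th17 and 98 and 156 in naive libraries. By summed counts over depth, Treg was 101-fold lower than naive (95% exact interval 34.2 to 494), and Th17, at 0 counts, was at least 53.2-fold lower than naive against a floor of 3 counts per library. Both differences were called (edgeR adjusted p = 2.73e-06 in Treg and 6.08e-07 in Th17). Macrophages carry much ferroportin, and the macrophage markers were higher in the naive libraries, as given above: at least 1 count was found for 5 and 6 of the 10 markers in Treg, 7 and 4 in Th17 and 10 and 10 in naive libraries, and Csf1r had 2 and 2 counts in Treg, 1 and 1 in Th17 and 64 and 96 in naive libraries. Their part in the Slc40a1 result was not tested.

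Among 6 further genes of iron storage, 2 rose and 1 fell in Treg, 2 rose and 2 fell in Th17 against naive cells, and 1 was higher and 2 lower in Treg against Th17 cells. Called shares were 50.0%, 66.7% and 50.0%, beside 43.4%, 57.7% and 38.4% of all tested genes. Ncoa4, the receptor that carries ferritin to the lysosome for breakdown, had 111 and 121 CPM in Treg, 44.8 and 43.9 in Th17 and 67.6 and 79.5 in naive libraries. It moved in opposite directions in the 2 types, by 0.66 ± 0.15 in Treg (edgeR adjusted p = 0.00320) and -0.73 ± 0.16 in Th17 against naive cells (edgeR adjusted p = 0.00106). Treg was above Th17 by 1.39 ± 0.16 (edgeR adjusted p = 6.87e-06).

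The list of iron regulatory proteins has 3 genes. Aco1, which is IRP1, had 69.7 and 67.7 CPM in Treg, 78.6 and 70.5 in Th17 and 30.8 and 32.0 in naive libraries, and rose by 1.13 ± 0.16 in Treg (edgeR adjusted p = 4.46e-05) and by 1.25 ± 0.16 in Th17 against naive cells (edgeR adjusted p = 9.85e-06). Ireb2, which is IRP2 and is named to complete the list after its values were seen, had 96.4 and 107 CPM in Treg, 97.5 and 91.8 in Th17 and 108 and 97.0 in naive libraries, and all types overlapped. Fbxl5, the iron sensor that targets IRP2 for breakdown, had 59.0 and 55.6 CPM in Treg, 72.1 and 73.3 in Th17 and 98.5 and 105 in naive libraries. It fell by 0.83 ± 0.15 in Treg (edgeR adjusted p = 4.19e-04) and by 0.48 ± 0.15 in Th17 against naive cells (edgeR adjusted p = 0.0114). The Th17 call was lost with total count scaling (-0.25, edgeR adjusted p = 0.192), without Th17 library 1 (-0.46, edgeR adjusted p = 0.0920) and without Th17 library 5 (-0.48, edgeR adjusted p = 0.0708).

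Of 11 genes of heme synthesis, 5 rose and 1 fell in Treg, and 6 rose and 1 fell in Th17 against naive cells, and 1 was higher and 4 lower in Treg against Th17 cells. Called shares were 54.5%, 63.6% and 45.5%, beside 43.4%, 57.7% and 38.4% of all tested genes. Cpox, the coproporphyrinogen oxidase of the mitochondrion, had 31.9 and 31.9 CPM in Treg, 675 and 534 in Th17 and 23.3 and 22.2 in naive libraries. Its Th17 level stood alone: Th17 against naive cells gave 4.73 ± 0.19 (edgeR adjusted p = 1.35e-10), and Treg against Th17 cells gave -4.24 ± 0.19 (edgeR adjusted p = 7.39e-10). The part of erythroid RNA, which differed between libraries as given for Tfrc, was not tested. Uros, an earlier enzyme of the same path, moved the other way: it had 18.0 and 16.2 CPM in Treg, 10.7 and 9.40 in Th17 and 29.0 and 35.6 in naive libraries, and fell by 1.69 ± 0.21 in Th17 against naive cells (edgeR adjusted p = 9.59e-06).

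Of 10 further genes of heme breakdown and transport, 4 rose and 2 fell in Treg, and 6 rose and 2 fell in Th17 against naive cells, and 1 was higher and 2 lower in Treg against Th17 cells. Called shares were 60.0%, 80.0% and 30.0%, beside 43.4%, 57.7% and 38.4% of all tested genes. Flvcr1, described as a heme exporter and a choline carrier, had 21.0 and 16.8 CPM in Treg, 43.2 and 45.5 in Th17 and 29.8 and 27.1 in naive libraries, and fell by 1.23 ± 0.19 in Treg against Th17 cells (edgeR adjusted p = 1.23e-04). Of 14 genes of the Nrf2 and Bach1 list without the members, 9 rose and 1 fell in Treg, 8 rose and 3 fell in Th17 against naive cells, and 4 were higher and 2 lower in Treg against Th17 cells. Here the called shares were 71.4%, 78.6% and 42.9%, beside the same shares of all tested genes. Bach1, the heme-sensing repressor whose known targets include Hmox1, Fth1 and Ftl1, had 58.0 and 55.6 CPM in Treg, 10.1 and 11.8 in Th17 and 39.8 and 35.7 in naive libraries. It fell by 1.78 ± 0.19 in Th17 against naive cells (edgeR adjusted p = 1.47e-06) and was 2.37 ± 0.19 higher in Treg than in Th17 cells (edgeR adjusted p = 1.97e-07). Its partner Mafk was also lowest in Th17, with 89.2 and 76.4 CPM in Treg, 40.5 and 35.4 in Th17 and 71.7 and 59.6 in naive libraries. Of 26 genes of iron-sulfur cluster assembly, 1 rose and 3 fell in Treg, and 4 rose and 4 fell in Th17 against naive cells, and none was higher and 4 were lower in Treg against Th17 cells. Its called shares of 15.4%, 30.8% and 15.4% lay below those of all tested genes.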

How the data were processed

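RNA from Treg, Th17 and naive T cells of wild-type mice, 2 libraries each, was prepared for sequencing with a SMARTER mRNA kit (labels' protocols). Cutadapt, STAR, DESeq2 and the build mm10 are named, without versions, in the submitters' processing notes. The authors deposited 1 table with unnormalized whole-number counts per gene and library. Per the file headers, other columns give gene length and, for the authors' comparisons with naive cells, log2 fold changes and raw and adjusted p-values, printed only where named as theirs. Its 6 FPKM columns were not used. The sources used here do not give the counting tool, its use of strand or the annotation release. Columns are numbered 1 and 5 but titles 1 and 2, so each column is tied to a type only.

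Counts of all 6 libraries were fitted with edgeR 4.0.16 in R 4.3.3 (TMM scaling, quasi-likelihood F-test with 3 residual degrees of freedom, genes kept by filterByExpr at a minimum count of 10), with Benjamini-Hochberg adjustment over 15543 genes and a threshold of 0.05. The script was tested on simulated data. CPM are TMM-scaled, and SE is the size of the log2 fold change over the root of its F statistic. Count ratios with exact intervals at 95% are given for Mt1 and for further genes with at most 3 counts summed over the 2 libraries of a type. Where that sum was 0, a bound against the floor of 3 counts per library (0.161 to 0.207 CPM) is given. The intervals cover counting error only. Per kilobase values use the table's gene length and, for Fth1, also that of all GENCODE M21 exons, chosen after seeing the data. Promoters are from RefSeq (GRCm38.p6), transcripts and exon overlaps from GENCODE M21. Alternatives were total count scaling, DESeq2 1.42.0, limma-voom 3.58.1, no filter on low counts, a fit of only the 2 types compared, a replicate block, and leaving out each library. The members and lists were chosen with earlier results of these data known. All 10 members are named, and from each list and comparison up to 2 called genes per direction with the largest log2 fold change could be named; those described were selected from these after their values were seen. For Mt1, Hmox1, Tfrc and Slc39a10 the 3 genes nearest in centred log2 CPM are named, among tested genes with a mean log2 CPM at or above the median.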

Additional observations from a re-analysis of the deposited data

How the results depend on the processing

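The 27 member results were recomputed under 12 alternatives, 324 values in all: 310 kept direction and side of the threshold, 3 lost a call, 4 gained one and 7 turned sign, the last all among results that were not called. Those that turned were Ftl1 in Th17 against naive cells with total count scaling (0.13), and others when 1 library was left out. Over the left-out libraries, Ftl1 in Th17 against naive cells ran from -0.37 to 0.14, Fth1 from -0.085 to 0.34, Hmox1 from -0.17 to 0.75, Hmox1 in Treg against naive cells from -0.63 to 0.29, and Slc11a2 in Treg against Th17 cells from -0.0048 to 0.12. The 3 lost calls are those of Ftl1 in the report, and the cause was not tested. Members called over the left-out libraries ran from 5 to 6 for Treg against naive, 4 to 5 for Th17 against naive and 4 to 5 for Treg against Th17 cells. Further genes of the metal lists called in Treg against Th17 cells numbered 31, but 14 without Treg library 1 and 19 without Th17 library 1, within a range of 14 to 37. All genes called over the left-out libraries ran from 4613 to 6581, 7130 to 8832 and 4118 to 6550. With total count scaling, 67.0% of all calls in Treg and 62.6% in Th17 against naive cells were higher, against 54.3% and 50.8% with TMM. The naming rule selects 87 results of further genes, of which the report describes only some: 57 of the 87 kept their call under every alternative, 30 lost it under at least 1 and none turned sign. Of those described with a fold change, that of Fbxl5 in Th17 against naive cells was lost.

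Column numbers are shared by types, but libraries of the same number deviated together only weakly (r = 0.0334 for Treg and Th17, 0.126 for Treg and naive, 0.00466 for Th17 and naive), so the number was not taken as pairing. With it as a replicate block, 6, 4 and 5 members, 45, 55 and 35 further genes and 6974, 9116 and 6296 of all genes were called. The naive level of Mt1 rests on 12 counts, and the part of Gm45774 in the low count of Mt2 was not tested. The other length of Fth1 was tried after seeing the data.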

Other observations

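Genes near a member over the 6 libraries were found by the Euclidean distance of centred log2 CPM, a description that carries no test. Only tested genes with a mean log2 CPM at or above the median of all tested genes were searched. Nearest to Mt1 were Il2ra (distance 0.773), which had 2547 CPM in Treg, 1715 in Th17 and 14.8 in naive cells on average, then Emp1 (1.20) and Plscr1 (1.47). Nearest to Tfrc were Mms22l (0.217), Ezh2 (0.249) and Hsd17b7 (0.291). Ezh2, a histone methyltransferase, averaged 105 CPM in Treg, 238 in Th17 and 38.0 in naive cells. Nearest to Hmox1 were Sdhb (0.211), Ndufb6 (0.233) and Gm13835 (0.246), and nearest to Slc39a10 were Nom1 (0.102), Mtdh (0.136) and 6030458C11Rik (0.141).

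Copper is also bound by metallothioneins. Of 8 copper handling genes tested, 3 rose and none fell in Treg, and 3 rose and none fell in Th17 against naive cells, and 1 was higher and 2 lower in Treg against Th17 cells. The called share was 37.5% in each comparison, below the 43.4%, 57.7% and 38.4% of all tested genes. Slc31a1, the copper importer CTR1, had 28.1 and 32.4 CPM in Treg, 49.4 and 42.8 in Th17 and 15.1 and 15.4 in naive libraries. It rose by 0.99 ± 0.19 in Treg (edgeR adjusted p = 6.62e-04) and by 1.60 ± 0.19 in Th17 against naive cells (edgeR adjusted p = 5.10e-06).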
